A study of Danio rerio with 24 samples.

Results

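The genes described here are those of the lysosomal proton pump, the cathepsins and a set of other lysosomal enzymes, membrane proteins and regulators, measured in zebrafish liver. They were chosen by gene symbol, with counts above 100 in at least 3 fish. Of 28210 genes in the count table, 63 matched by symbol, and 45 of these passed the filter, among 11801 genes that passed it in all. The livers came from fish at 2 months after fertilisation, with 6 fish in each of 4 genotypes. Z+ fish carried Tg(lfabp:eGFP-T2A-ZAAT), which encodes the mutant Z form of human α1-antitrypsin, and A+ fish carried Tg(lfabp:eGFP-T2A-AAT), which encodes the wildtype form. Z- and A- fish were the siblings of each line that carried no transgene. In both lines the transgene was under the fabp10a (lfabp) promoter, which is active in hepatocytes, and gave eGFP and antitrypsin from a single transcript joined by a T2A motif. Transgenic parents were heterozygous and were crossed out to wildtype TU fish. The background of the transgenic parents is not given in the sources used here.

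The vacuolar ATPase (V-ATPase) is a rotary pump that acidifies lysosomes and endosomes. Its V1 sector binds and splits ATP on the cytosolic side, and its V0 sector carries protons through the membrane. The acid lumen keeps cathepsins, which are proteases, and the glycan and lipid hydrolases active. In liver, lysosomes degrade endocytosed proteins, worn organelles and the cargo of autophagosomes, and misfolded Z antitrypsin is known in mammals as one such cargo.

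Between 33898825 and 44715713 reads were counted on genes per fish, and at this depth 3 counts stood for 0.0492 to 0.149 CPM (read counts scaled to a common library size by TMM, the unit of every level below). Transgene counts lay between 24326 and 331234 in Z+ fish and between 94778 and 192578 in A+ fish, against 5 to 274 in Z- fish and 9 to 236 in A- fish. Hepatocyte markers were abundant in every fish, with all 14 of the 14 markers in the table above the filter and a summed level between 53046 and 243396 CPM. Leukocyte markers summed to 155 to 390 CPM in Z+, 88.8 to 288 CPM in A+, 130 to 191 CPM in Z- and 143 to 406 CPM in A- fish, with 18 of 23 markers above the filter and tyrobp at 0 counts in 15 of 24 fish. There were 4 libraries that stood apart. A+ replicate 2 held 5520 CPM of ovary and egg transcripts, A- replicate 6 held 21754 CPM of intestinal transcripts, and Z+ replicate 5 and Z- replicate 2 held 792403 and 829950 CPM of vitellogenin, the yolk precursor made by the female liver. Many of the values are also given without them. Exocrine pancreas transcripts varied too, from 89.8 CPM in Z- replicate 2 to 36928 CPM in A+ replicate 1, which is not among these 4. They reached 20096 CPM in A- replicate 6, 14346 CPM in Z+ replicate 5, 14260 CPM in Z- replicate 4 and 11466 CPM in Z+ replicate 3. Their part in the results was not tested. In pieces of whole liver, fewer cells of a type and less RNA per cell cannot be told apart.

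Several transcripts of the V-ATPase were lower in both transgenic genotypes than in their own siblings (4 of 18 pump genes past the threshold in Z+ fish, 9 of 18 in A+ fish), and no pump gene passed the threshold between Z+ and A+ fish, although up to 4 did under single alternatives. Of the 45 members, 4 were lower and 0 higher in Z+ fish compared with Z- fish (adjusted p under 0.05, edgeR quasi-likelihood test), where 12.2% of all genes tested passed in either direction, 7% as higher and 5.17% as lower. Between A+ and A- fish, 15 members were lower and 1 was higher, where 10.1% of all genes passed in either direction, 5.27% as higher and 4.86% as lower. In Z+ fish compared with A+ fish, 1 member was higher and 2 were lower, against 11.8% of all genes in either direction, 5.91% as higher and 5.92% as lower. A fit of only A+ and A- fish called 3 members, atp6v1c1a, atp6v1c1b and atp6v1g1, where that fit called 1.13% of all genes, and a fit of only Z+ and A+ fish called 1, mcoln2, where it called 2.86%. The median log2 fold change of the members was -0.13 in Z+ compared with Z- and -0.38 in A+ compared with A-, beside 0.03 and 0.0050 over all genes tested. Between Z+ and A+ fish it was 0.09, beside -0.02 over all genes.

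**Figure D1:**
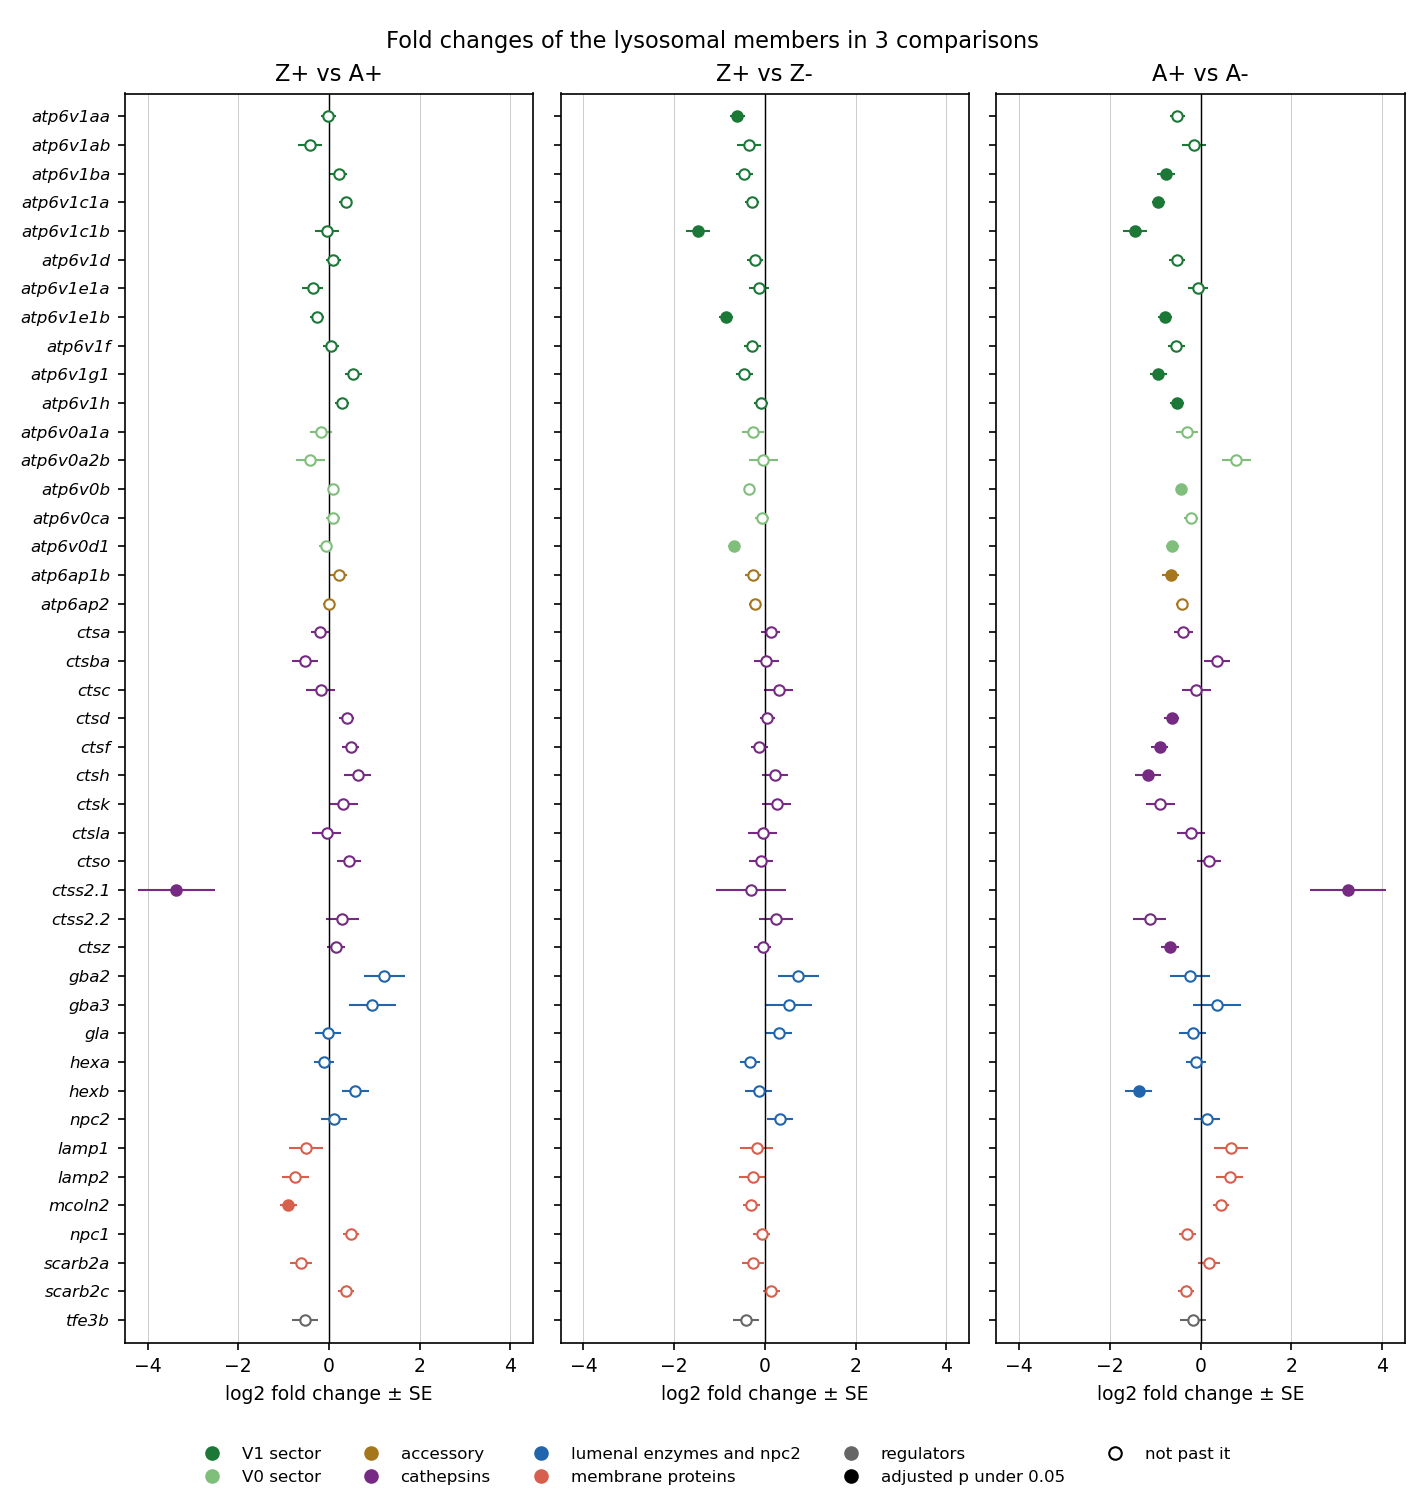
Log2 fold change (x axis, point, with its standard error as a bar) of the members (rows, coloured by role) in 3 comparisons, with filled points past an adjusted p of 0.05. The V1 and V0 rows lie left of 0 in the Z+ vs Z- panel and, with atp6v0a2b as the exception, in the A+ vs A- panel, and lie on both sides of 0 in the Z+ vs A+ panel. The cathepsin ctsl.1, at 0 or 1 count in all Z- fish, and 1 further gene are left out.

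Within the pump, the V1 sector had the largest fold differences. All 11 of its measured subunit genes had negative log2 fold changes in both transgenic genotypes relative to their siblings. Past the threshold, 3 were lower in Z+ compared with Z- and 6 in A+ compared with A-, where 5.17% and 4.86% of all genes were lower. The largest fold change was in atp6v1c1b, a gene for the C subunit, which bridges the V1 and V0 sectors and takes part in their assembly. Its lowest, median and highest levels were 4.38, 9.01 and 12.8 CPM in Z+ fish, 5.39, 9.5 and 13.2 CPM in A+ fish, 13.4, 26 and 30.1 CPM in Z- fish and 19, 23.6 and 33.8 CPM in A- fish. Every Z+ fish was below every Z- fish and every A+ fish was below every A- fish, and the transgenic genotypes overlapped each other. The log2 fold change was -1.47 ± 0.26 (SE, adjusted p = 0.0010) in Z+ compared with Z- and -1.44 ± 0.26 (adjusted p = 0.0045) in A+ compared with A-. Between Z+ and A+ fish it was -0.04 ± 0.26, with a 95% interval from -0.58 to 0.49.

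The E subunit is a part of the peripheral stalk that holds the catalytic head still. Transcripts of atp6v1e1b, a gene for this subunit, were lower in both lines. The lowest, median and highest levels of atp6v1e1b were 18.2, 24.4 and 29.3 CPM in Z+, 19.4, 30.2 and 36.3 CPM in A+, 32.4, 44.4 and 50.9 CPM in Z- and 45.4, 47.5 and 58.8 CPM in A- fish. Neither transgenic genotype overlapped its siblings. The log2 fold change was -0.86 ± 0.16 (adjusted p = 0.0014) in Z+ compared with Z- and -0.79 ± 0.16 (adjusted p = 0.0073) in A+ compared with A-. Between Z+ and A+ fish it was -0.26 ± 0.16 (adjusted p = 0.29). The catalytic A subunit gene atp6v1aa measured 18.2, 23.1 and 25.9 CPM in Z+, 15.2, 22.3 and 28.5 CPM in A+, 21.4, 37.1 and 40.2 CPM in Z- and 25.6, 32.4 and 37.7 CPM in A- fish (lowest, median, highest). Its levels overlapped between each transgenic genotype and its siblings. It was lower in Z+ compared with Z- (-0.61 ± 0.17, adjusted p = 0.021) and lay just outside the threshold in A+ compared with A- (-0.51 ± 0.17, adjusted p = 0.052). The call in Z+ compared with Z- was lost without Z+ replicate 2 or without Z- replicate 4.

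**Figure D2:**
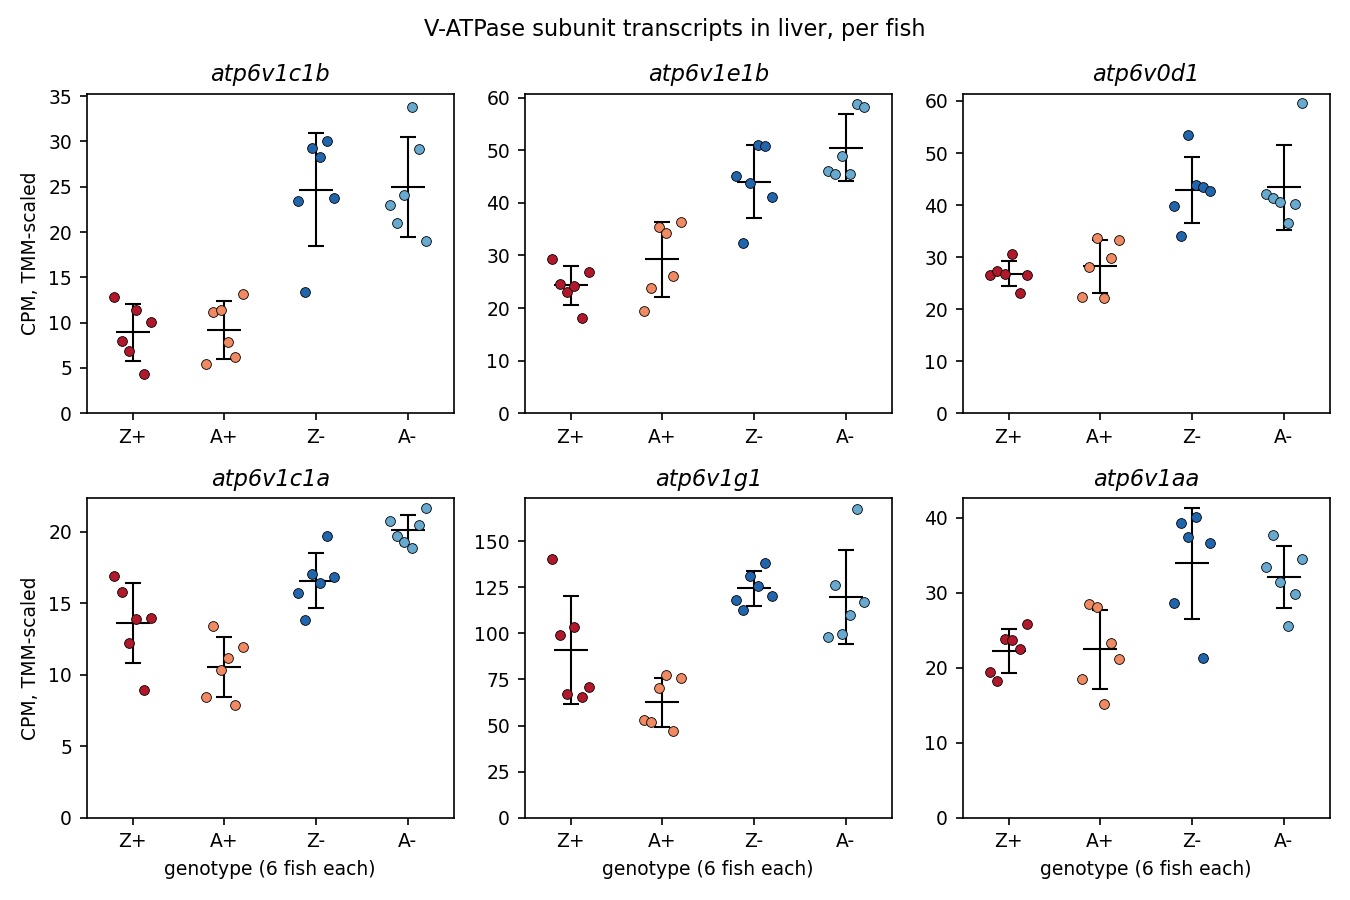
CPM (y axis, linear, from 0) of 6 V-ATPase subunit genes in each fish (points) of the 4 genotypes, with the mean and SD as the black cross bar and whiskers. For atp6v1c1b, atp6v1e1b and atp6v0d1 every Z+ fish lies below every Z- fish and every A+ fish below every A- fish.

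A further 4 V1 subunit genes were lower past the threshold in A+ compared with A- fish. The second C subunit gene, atp6v1c1a, measured 8.91, 13.9 and 16.9 CPM in Z+, 7.91, 10.8 and 13.4 CPM in A+, 13.8, 16.6 and 19.7 CPM in Z- and 18.8, 20.1 and 21.7 CPM in A- fish. Every A+ fish was below every A- fish (-0.93 ± 0.15, adjusted p = 0.0017), and the Z+ and Z- fish overlapped (-0.28 ± 0.15, adjusted p = 0.20). For atp6v1g1, whose product pairs with the E subunit in the stalk, levels were 65.2, 84.9 and 140 CPM in Z+, 47.2, 61.7 and 77.5 CPM in A+, 113, 123 and 138 CPM in Z- and 97.8, 113 and 167 CPM in A- fish. Again all A+ fish lay below all A- fish (-0.93 ± 0.19, adjusted p = 0.0072), while 1 Z+ fish, at 140 CPM, was above every Z- fish and the Z+ and Z- fish overlapped (-0.45 ± 0.19, adjusted p = 0.11). The B subunit gene atp6v1ba, which forms the catalytic head with the A subunit, measured 17.2, 25.7 and 26.8 CPM in Z+, 15.7, 20.3 and 27.1 CPM in A+, 24.7, 32.2 and 44.7 CPM in Z- and 22.4, 33.8 and 52 CPM in A- fish. It was lower in A+ compared with A- (-0.76 ± 0.19, adjusted p = 0.019), with overlapping levels, and had -0.45 ± 0.19 in Z+ compared with Z- (adjusted p = 0.12). The regulatory H subunit gene atp6v1h was lower in A+ fish (16.1, 19.3 and 24.7 CPM) than in A- fish (22.7, 29.2 and 35.1 CPM), by -0.53 ± 0.15 (adjusted p = 0.030), a call that was lost on leaving out A+ replicate 1 or 5 or A- replicate 3, 5 or 6 (adjusted p = 0.078 without A- replicate 6). The remaining V1 genes, atp6v1ab, atp6v1d, atp6v1e1a and atp6v1f, had log2 fold changes between -0.53 and -0.05 in A+ compared with A- and between -0.34 and -0.14 in Z+ compared with Z-, none past the threshold. Of these, atp6v1f had all A+ fish below all A- fish. DESeq2 called atp6v1d and atp6v1f lower in A+ compared with A- (adjusted p = 0.043 and 0.041).

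In the V0 sector, atp6v0d1 was lower in both lines. Its product sits on the ring of proton-carrying subunits and meets the V1 rotor. Levels were 23.1, 26.6 and 30.5 CPM in Z+, 22.2, 29 and 33.7 CPM in A+, 34, 43.1 and 53.4 CPM in Z- and 36.5, 41 and 59.6 CPM in A- fish (lowest, median, highest). Neither transgenic genotype overlapped its siblings, and the highest A- value, of A- replicate 6, stood apart from the other 5. The log2 fold change was -0.68 ± 0.14 (adjusted p = 0.0029) in Z+ compared with Z- and -0.62 ± 0.14 (adjusted p = 0.012) in A+ compared with A-. Between Z+ and A+ fish it was -0.08 ± 0.14, with a 95% interval from -0.36 to 0.21. The ring subunit gene atp6v0b measured 16.3, 19.9 and 23.4 CPM in Z+, 16.9, 18.9 and 21 CPM in A+, 19.7, 26.8 and 28.4 CPM in Z- and 22.1, 25.4 and 29.1 CPM in A- fish. All A+ fish were below all A- fish (-0.43 ± 0.12, adjusted p = 0.024), a call lost without A- replicate 6 (adjusted p = 0.074), A+ replicate 1 or A- replicate 3 or 5, and Z+ compared with Z- gave -0.34 ± 0.12 (adjusted p = 0.054). The other ring gene measured, atp6v0ca, did not pass in any comparison, with medians of 72.8, 70.5, 74 and 77.4 CPM in Z+, A+, Z- and A- fish.

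The genes of the a subunits, which hold the proton half-channels, passed in no comparison. The gene atp6v0a1a had -0.27 ± 0.24 in Z+ compared with Z- and -0.29 ± 0.24 in A+ compared with A-. The gene atp6v0a2b was the only one of the 18 pump genes with a positive value in A+ compared with A- (0.79 ± 0.32, adjusted p = 0.12), with 18.4, 27.7 and 36.2 CPM in A+ and 12.6, 15.4 and 21.4 CPM in A- fish. Of the accessory genes, atp6ap1b, whose product helps assemble V0, was lower in A+ fish (6.09, 8.26 and 12.1 CPM) than in A- fish (9.69, 12.3 and 23.9 CPM), by -0.66 ± 0.18 (adjusted p = 0.026), but not without A- replicate 6 (-0.40, adjusted p = 0.084), A+ replicate 1 or 4 or A- replicate 3 or 5. The gene atp6ap2, for the prorenin receptor, had -0.22 ± 0.13 (adjusted p = 0.27) in Z+ compared with Z-, and in A+ compared with A- it had -0.40 ± 0.13 (adjusted p = 0.052).

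The 2 lines share no fish in their comparisons with siblings, and 3 members were lower past the threshold in both of them, atp6v1c1b, atp6v1e1b and atp6v0d1, all of the pump. Over all genes tested, 1.22% were lower in both. Both comparisons came from a single fit with a shared spread. In a fit of only A+ and A- fish, atp6v1e1b and atp6v0d1 were not called, while a fit of only Z+ and Z- fish called all 3 lower. Of the 18 pump genes, 18 were below 0 in Z+ compared with Z-, 4 of them past the threshold, and 17 were below 0 in A+ compared with A-, 9 of them past it. Over all genes tested, 5.17% and 4.86% were lower past it. The median log2 fold changes of the 18 were -0.28 and -0.52. DESeq2 called 5 of them lower in Z+ compared with Z- and 13 in A+ compared with A-. It called 18.2% and 15.4% of all genes there in either direction. A vitellogenin covariate in edgeR also gave 5 and 13, beside 15.9% and 15.6% of all genes. With library totals alone in place of TMM, 17 of 18 and 16 of 18 were below 0, and 2 passed in each comparison. That setting called 4.14% and 4.61% of all genes in either direction. In Z+ compared with A+, 10 of 18 were above 0 with a median of 0.03, and 0 passed the threshold (edgeR, 2 at an unadjusted p under 0.05). The values nearest to it were those of atp6v1g1 (0.54 ± 0.19, adjusted p = 0.060) and atp6v1c1a (0.37 ± 0.15, adjusted p = 0.10), both toward higher levels in Z+ fish. DESeq2 called atp6v1g1 higher (0.50, adjusted p = 0.046), as did the fits without Z+ replicate 3, Z+ replicate 5 or A+ replicate 4 (0.61 in each, adjusted p between 0.037 and 0.048). The gene atp6v1c1a was called higher without Z+ replicate 5 (0.46, adjusted p = 0.031), without A+ replicate 2 (0.45, adjusted p = 0.040) and without all 4 libraries that stood apart (0.53, adjusted p = 0.0058). With vitellogenin as a covariate, atp6v1g1, atp6v1c1a and atp6v1h were called higher and atp6v0a2b lower in Z+ fish. The median of the 18 in this comparison was -0.01 with DESeq2's size factors and -0.13 with library totals alone, where the median of all genes was -0.21. Without the 4 libraries that stood apart, chosen after seeing the data, 5 pump genes were lower in Z+ compared with Z-, where 27.3% of all genes were called in either direction, and 10 in A+ compared with A-, where 12.1% were.

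Against both non-transgenic genotypes together, Z+ fish had 7 members lower and 0 higher, where 16.8% of all genes passed, 9.16% as higher and 7.66% as lower. All 7 were pump genes, namely atp6v1c1b, atp6v1e1b, atp6v0d1, atp6v1aa, atp6v0b, atp6v1c1a and atp6v1ba. Their log2 fold changes lay between -1.48 ± 0.24 for atp6v1c1b (adjusted p = 1.9e-04) and -0.34 ± 0.10 for atp6v0b (adjusted p = 0.023). Without the 4 libraries that stood apart, 15 members were called, where 35% of all genes were. They were 8 pump genes, lamp2, mcoln2, scarb2a and tfe3b as lower and gba2, gba3 and ctsl.1 as higher. The call on atp6v1ba (-0.50 ± 0.17, adjusted p = 0.043) was lost on leaving out any 1 of 12 fish (each Z+ fish, Z- replicates 3, 4 and 6, and A- replicates 2, 5 and 6). That on atp6v0b was lost without Z+ replicate 2, 3 or 6, and that on atp6v1c1a without Z+ replicate 3 or 5. Of the 7, every Z+ fish was below every Z- fish for 3, where 3% of all genes were, and below every A- fish for 4, where 3.66% of all genes were. No member had every Z+ fish above every Z- fish or above every A- fish, where 4.81% and 4.06% of all genes did. A comparison added after seeing the data set the mean of Z+ and A+ against the mean of Z- and A-. It gave 15 members lower and 0 higher, where 19.2% of all genes passed, 10.5% as higher and 8.71% as lower, and 12 of the 15 were pump genes. Of these 12, the calls on atp6v1d, atp6v1f and atp6ap2 were lost on leaving out any 1 of 17, 6 and 2 fish. The median of the 18 pump genes was -0.40, beside 0.04 over all genes. The other 3 included ctsf and hexb.

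Summed over the 18 pump genes, each liver of Z+ fish held 390 to 504 CPM (median 435) and each liver of A+ fish 359 to 456 CPM (median 419), against 544 to 622 CPM (median 572) in Z- fish and 519 to 734 CPM (median 585) in A- fish. With TMM scaling, no transgenic fish reached the level of any non-transgenic fish. Without the TMM factors, which ran from 0.593 in Z- replicate 2 to 1.75 in A+ replicate 2, the sums of transgenic and non-transgenic fish overlap. In the V1 sector alone the sums were 186 to 331 CPM in Z+ and 172 to 258 CPM in A+ fish, against 290 to 387 CPM in Z- and 317 to 438 CPM in A- fish, so that the A+ fish lay below all non-transgenic fish while the Z+ fish overlapped both Z- and A- fish. V0 sums overlapped throughout. The highest sum over all 18, 734 CPM, was that of A- replicate 6, the fish with the most intestinal transcripts.

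**Figure D3:**
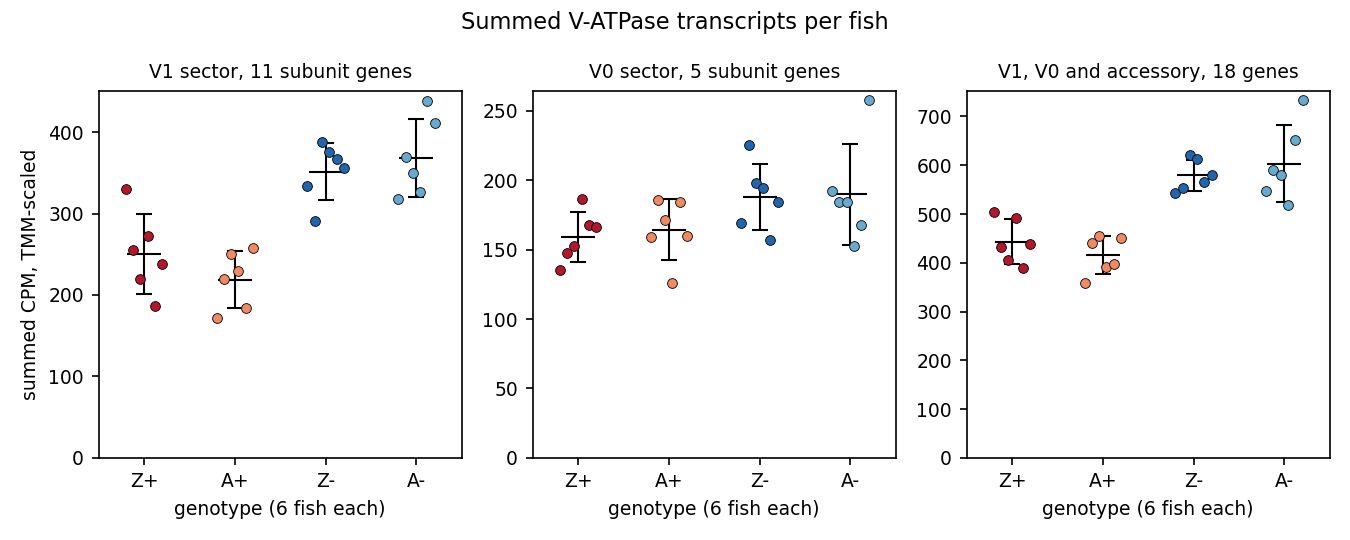
Summed CPM (y axis, linear, from 0) of the V1 genes, the V0 genes and all 18 pump genes in each fish (points), with mean and SD as the cross bar and whiskers. In the panel of all 18 genes the Z+ and A+ fish lie between 359 and 504 CPM and the Z- and A- fish between 519 and 734 CPM.

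Zebrafish carry pairs of paralogous genes for several V1 subunits, and the share of a pair's reads that fell on one copy does not depend on how libraries are scaled. These shares were not among the planned results. Each pair tested holds a gene called lower in Z+ compared with Z- above, on the same counts, so the tests rest on a selected result. Among the reads of atp6v1c1a and atp6v1c1b, the share on atp6v1c1b was between 33% and 45% in Z+ fish (SD 5.20 points, n = 6) and between 49.3% and 63.3% in Z- fish (SD 5.16 points, n = 6). The means differed by -20.3 percentage points and the genotypes did not overlap (exact two-sided permutation test, p = 0.0022, the smallest 6 against 6 fish can give, adjusted p = 0.0097 over 9 such tests). In A+ fish the share was 45.7% ± 5.64, against 54.9% ± 6.09 in A- fish, with an overlap (exact p = 0.019, adjusted p = 0.044). Z+ and A+ fish differed by -6.98 percentage points (exact p = 0.056, adjusted p = 0.10).

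For the E subunit pair, the share on atp6v1e1b was 80.1% ± 1.91 in Z+ fish and 86.8% ± 1.28 in Z- fish (SD, n = 6 each, exact p = 0.0022, adjusted p = 0.0097), without overlap. It was 79.3% ± 4 in A+ and 86.2% ± 1.87 in A- fish (exact p = 0.0087, adjusted p = 0.026). In both pairs, the copy with the lower share in transgenic fish was the one with the more negative fold change above. This follows from the arithmetic, since both values come from the same counts. In the A subunit pair the share on atp6v1aa was 77.7% ± 3.08 in Z+, 73.4% ± 7.54 in A+, 80.7% ± 4.54 in Z- and 77.8% ± 3.90 in A- fish, and none of its 3 comparisons passed (exact tests, adjusted p = 0.26 in each). Reads that fit both copies of a pair equally could be split or lost in counting, and this was not examined here.

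**Figure D4:**
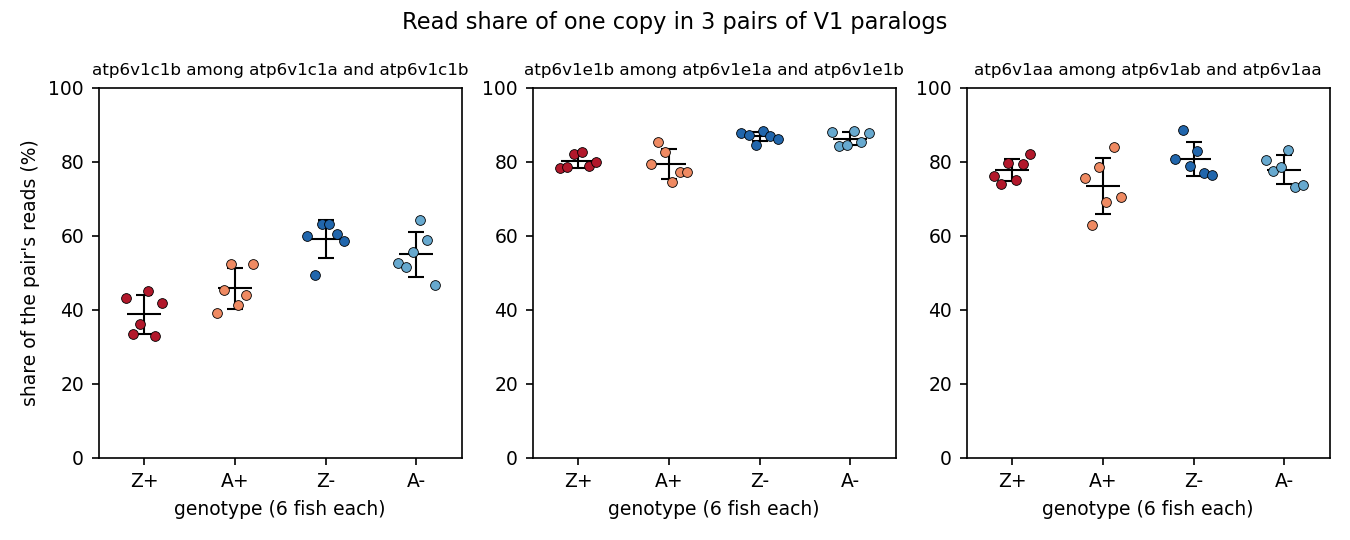
Share of the reads of a paralog pair on the named copy (y axis, percent, 0 to 100) in each fish (points), with mean and SD as the cross bar and whiskers. Z+ fish lie between 33% and 45% for atp6v1c1b, below the Z- fish at 49.3% to 63.3%.

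In edgeR, cathepsins passed the threshold against siblings in A+ fish and not in Z+ fish, and none passed the interaction test of the lines, where DESeq2 called ctsh, ctss2.1 and ctsl.1. Of the 13 measured, 0 passed in Z+ compared with Z- (edgeR, 1 at an unadjusted p under 0.05, ctsl.1), where 12.2% of all genes did, 7% as higher and 5.17% as lower. In A+ compared with A- 4 were lower and 1 was higher, where 10.1% of all genes passed, 5.27% as higher and 4.86% as lower. The median log2 fold change of the 13 cathepsins was 0.05 in Z+ compared with Z- and -0.64 in A+ compared with A-, and 0.10 and -0.28 without the 4 libraries that stood apart. The sibling genotypes themselves differed in these genes. In Z- compared with A- the cathepsin median was -0.47, and -0.20 without those 4 libraries. There 2 of 13 were above 0, 7 were at an unadjusted p under 0.05 (edgeR) and 0 passed the threshold. The cysteine protease gene ctsf measured 25.8, 34.3 and 50.1 CPM in A+ fish and 45.1, 72.1 and 94.6 CPM in A- fish, with 2 A+ fish above the lowest A- fish (-0.90 ± 0.18, adjusted p = 0.0081). In Z+ and Z- fish the medians were 51.2 and 57.1 CPM (-0.12 ± 0.18, adjusted p = 0.72). The lysosomal aspartic protease gene ctsd measured 59.9, 72.6 and 107 CPM in A+ and 88.3, 114 and 171 CPM in A- fish (-0.64 ± 0.16, adjusted p = 0.021). Its medians in Z+ and Z- fish were 103 and 97.9 CPM.

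The calls on the other 2 lower cathepsins were lost without single libraries. The aminopeptidase gene ctsh measured 4.87, 11.1 and 13.9 CPM in A+ and 12.8, 18.2 and 53.9 CPM in A- fish (-1.16 ± 0.29, adjusted p = 0.020), and ctsz, for a carboxypeptidase, 36.4, 41.8 and 51.3 CPM in A+ and 44.3, 60.9 and 120 CPM in A- fish (-0.68 ± 0.20, adjusted p = 0.030). The highest A- values of ctsh, ctsz and ctsd came from the fish with the intestinal transcripts, A- replicate 6. Without it, ctsh had -0.69 (adjusted p = 0.054), ctsz -0.40 (adjusted p = 0.098) and ctsd -0.48 (adjusted p = 0.054), so that 3 of the 4 calls were lost while ctsf stayed past the threshold. The call on ctsz was also lost without A+ replicate 1 or A- replicate 3 or 5, and that on ctsd without A- replicate 3. Of 18 leukocyte markers, which include genes of the macrophages in which cathepsins are also abundant, 0 passed in A+ compared with A- (edgeR, 0 at an unadjusted p under 0.05), with a median of -0.16, and their part in the cathepsin values was not tested. In the A- fish other than replicate 6, the intestinal markers summed to between 854 and 2346 CPM. A single marker, apoa4b.1, had a median of 1458 CPM in A- fish, beside 1526 CPM for the whole list. Medians in A+ and A- fish were 722 and 1458 CPM for apoa4b.1 and 48.5 and 56.7 CPM for apoa4b.2. They were 13.4 and 0.50 CPM for fabp2 and 50.8 and 1.39 CPM for chia.1. The part of these transcripts in the cathepsin values was not tested. A- replicate 6 also had the highest leukocyte sum of all 24 fish, 406 CPM, and the highest sum of biliary and stellate markers, 1933 CPM.

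The 1 higher cathepsin was ctss2.1, a cathepsin S gene, which in zebrafish lies next to ctsk and ctss2.2 (RefSeq gene order, assembly GRCz12tu). It measured 2.58, 4.79 and 16.1 CPM in Z+, 4.60, 13 and 330 CPM in A+, 3.77, 6.93 and 17.2 CPM in Z- and 3.78, 6.25 and 12.5 CPM in A- fish. It was lower in Z+ compared with A+ (-3.37 ± 0.85, adjusted p = 0.017) and higher in A+ compared with A- (3.24 ± 0.84, adjusted p = 0.022). The value of 330 CPM was that of A+ replicate 2, the fish with 5520 CPM of ovary and egg transcripts. Without it the log2 fold changes were -1.07 (adjusted p = 0.14) and 0.93 (adjusted p = 0.23), and the call against A- was also lost without A- replicate 5. This fish was also the highest of all 24 for ctsba (420 CPM), lamp1 (27.1 CPM) and lamp2 (297 CPM).

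The genes ctsba and ctsla, for cathepsins B and L, did not pass in any comparison. Their medians were 115 and 117 CPM in Z+, 119 and 118 CPM in A+, 108 and 123 CPM in Z- and 132 and 144 CPM in A- fish. The neighbouring genes ctsk and ctss2.2 had -0.89 ± 0.32 (adjusted p = 0.072) and -1.12 ± 0.37 (adjusted p = 0.056) in A+ compared with A-. DESeq2 called both (adjusted p = 0.045 and 0.024). The highest A- value of ctsk, 37.3 CPM, was that of A- replicate 6, and without the 4 libraries that stood apart the values were -0.28 (adjusted p = 0.34) for ctsk and -0.83 (adjusted p = 0.13) for ctss2.2. The counts of ctsl.1 were between 0 and 316 in Z+, 0 and 112 in A+, 0 and 1 in Z- and 0 and 847 in A- fish. Its 4 fish above 100 counts were Z+ replicates 3 and 6, A+ replicate 5 and A- replicate 6, which were also the 4 fish with the highest sums of intestinal markers (8404, 7676, 4974 and 21754 CPM). Their part in this result was not tested. In Z+ compared with Z-, ctsl.1 was called higher by DESeq2 (adjusted p = 0.011) and by edgeR without the 4 libraries that stood apart (adjusted p = 0.0098). In A+ compared with A- its fitted value was below 0 with all fish and above 0 without those 4, past the threshold in neither. The rest of the cathepsins, ctsa, ctsc and ctso, had log2 fold changes between -0.38 and 0.44 in Z+ compared with A+, Z+ compared with Z- and A+ compared with A-.

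Among the lumenal enzymes, hexb, for the β subunit of hexosaminidase, which breaks down GM2 ganglioside, measured 9.05, 12.9 and 18.2 CPM in Z+, 6.49, 8.98 and 11.4 CPM in A+, 12.3, 14.2 and 17.4 CPM in Z- and 12.9, 15.7 and 59.8 CPM in A- fish. All A+ fish were below all A- fish (-1.37 ± 0.30, adjusted p = 0.011), and Z+ and Z- fish overlapped (-0.13 ± 0.30, adjusted p = 0.82). The highest A- value was again that of A- replicate 6, and without the 4 libraries that stood apart the fold change in A+ compared with A- was -0.73 (adjusted p = 0.013). Its partner hexa, for the α subunit, had medians of 12, 12.6, 15.5 and 13.6 CPM in Z+, A+, Z- and A- fish and passed in no comparison. The same held for gla, for α-galactosidase A, and for the cholesterol-binding protein gene npc2, whose medians were 180, 128, 128 and 133 CPM in Z+, A+, Z- and A- fish. The symbol rule also caught gba2 and gba3, whose products act outside the lysosome. The gene gba2 had 1.22 ± 0.45 (adjusted p = 0.078) and gba3 0.95 ± 0.52 (adjusted p = 0.24) in Z+ compared with A+. Without the 4 libraries that stood apart both were called higher, at 1.31 (adjusted p = 0.0099) and 1.68 (adjusted p = 0.0029), and DESeq2 called gba2 (adjusted p = 0.044). In the edgeR fit without these libraries, the siblings differed too. Z- compared with A- had 1.18 for gba2 (adjusted p = 0.085) and 1.24 for gba3 (adjusted p = 0.074). The interaction there was 0.13 (adjusted p = 0.89) and 0.44 (adjusted p = 0.62). Counts of gba3 ran from 7 to 225, with 7 fish above 100. In A+ compared with A-, 9 members in all had every A+ fish below every A- fish, 7 of them pump genes, where 2.01% of all genes did, and none had every A+ fish above every A- fish, where 0.72% did.

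**Figure D5:**
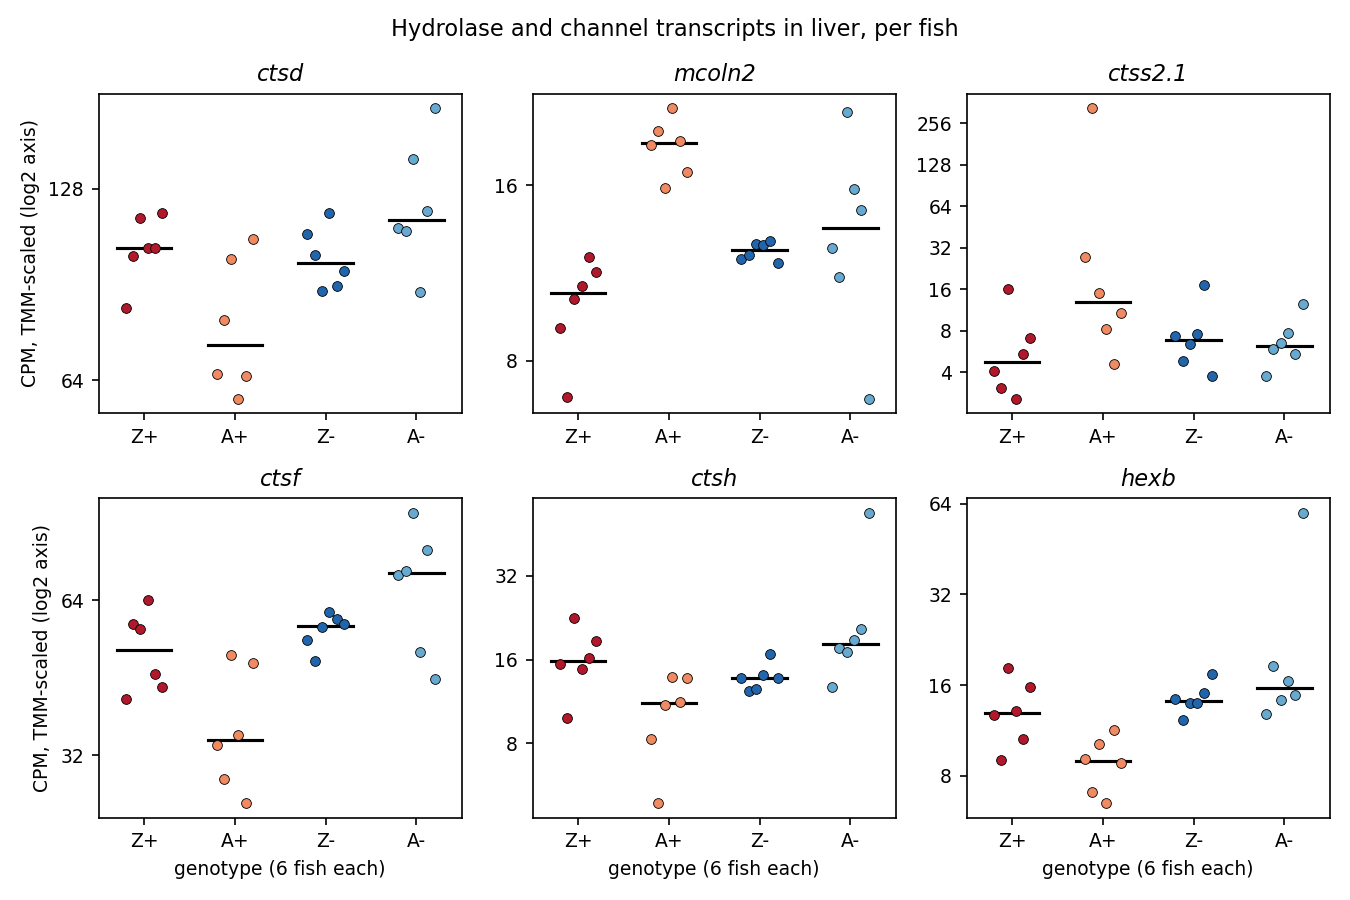
CPM (y axis, log2-spaced) of 6 genes in each fish (points) of the 4 genotypes, with the median as a black line. For mcoln2 every Z+ fish (6.92 to 12 CPM) lies below every A+ fish, while Z+ fish overlap the Z- and A- fish. Single fish stand far above their genotype for ctss2.1 (330 CPM in A+), ctsh (53.9 CPM in A-) and hexb (59.8 CPM in A-).

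Of the 6 membrane proteins, edgeR with all fish called mcoln2 alone, and only in Z+ compared with A+. It encodes TRPML2, a cation channel of endosomes and lysosomes. Levels were 6.92, 10.5 and 12 CPM in Z+, 15.8, 18.9 and 21.7 CPM in A+, 11.8, 12.4 and 12.8 CPM in Z- and 6.88, 13.5 and 21.3 CPM in A- fish. Every Z+ fish was below every A+ fish, where 1.08% of all genes were and 2.25% were the other way round (-0.89 ± 0.19, adjusted p = 0.0055), and this call held under every alternative tried. Against their own siblings, Z+ fish had -0.30 ± 0.18 (adjusted p = 0.31) and A+ fish 0.45 ± 0.18 (adjusted p = 0.12).

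The major lysosomal membrane glycoprotein gene lamp2 measured 50.8, 62.1 and 128 CPM in Z+, 81.6, 91.1 and 297 CPM in A+, 69.1, 83.9 and 129 CPM in Z- and 63.1, 76.9 and 95.9 CPM in A- fish. Between Z+ and A+ fish its log2 fold change was -0.74 ± 0.29 (adjusted p = 0.10), and -0.52 (adjusted p = 0.011) without the 4 libraries that stood apart. For scarb2a, a LIMP-2 gene whose product is a membrane protein of lysosomes and a transport receptor in mammals, the values were -0.62 ± 0.24 (adjusted p = 0.094) and -0.86 (adjusted p = 0.0042) without them. The cholesterol exporter gene npc1 had medians of 96.1 CPM in Z+, 69.4 CPM in A+, 110 CPM in Z- and 90.4 CPM in A- fish (0.49 ± 0.18 in Z+ compared with A+, adjusted p = 0.086). The genes lamp1 and scarb2c passed in no comparison.

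The single measured regulator was tfe3b, a relative of TFEB, the transcription factor that drives lysosomal genes in mammals. Its medians were 1.30, 1.95, 1.98 and 2.40 CPM in Z+, A+, Z- and A- fish, and its log2 fold change in Z+ compared with A+ was -0.53 ± 0.29 (adjusted p = 0.23). Without the 4 libraries that stood apart it was -0.90 (adjusted p = 0.014). The gene tfeb had between 1 and 65 counts and was not tested. The other symbols matched but under the filter were atp6v0a1b, atp6v0a2a, atp6v0cb, atp6v1b2, atp6v1c2, atp6ap1a, atp6ap1la, atp6ap1lb, ctsbb, ctslb, ctsll, ctss1, gaa, mcoln1a, mcoln1b, mcoln3a and tfe3a, and none of these 17 exceeded 188 counts in any fish.

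Whether the change from sibling to transgenic fish differed between the lines was tested as the interaction of line and transgene. No member passed (0 of 45 in edgeR, 14 at an unadjusted p under 0.05), where 0.525% of all genes did, 0.449% above and 0.0763% below 0, and 2529 of 11801 genes were at an unadjusted p under 0.05. DESeq2 called 6 members, where it called 7.99% of all genes. The pump genes lower in both lines had interaction values near 0, at -0.03 ± 0.36 for atp6v1c1b, -0.07 ± 0.22 for atp6v1e1b and -0.06 ± 0.20 for atp6v0d1 on the log2 scale. Some of the genes called in A+ compared with A- but not in Z+ compared with Z- had larger values. They were 0.65 ± 0.21 for atp6v1c1a (adjusted p = 0.095), 0.78 ± 0.26 for ctsf (adjusted p = 0.10) and 1.39 ± 0.41 for ctsh (adjusted p = 0.082). The other genes of this kind are not all listed. Both sets were chosen by calls on the same fish. That choice itself favours values near 0 in the first set and away from 0 in the second. Without the 4 libraries that stood apart, atp6v1c1a passed (0.72, adjusted p = 0.032) and ctsh had 0.75 (adjusted p = 0.12), where 3.15% of all genes passed. In that fit atp6v0b had -0.10, atp6v1ba 0.21, hexb 0.59 and ctsf 0.77, none past the threshold. The DESeq2 calls included atp6v1c1a, ctsh, mcoln2, ctss2.1 and ctsl.1.

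Between the non-transgenic genotypes, Z- and A-, 0 members passed (edgeR, 8 at an unadjusted p under 0.05), where 1.17% of all genes did, 0.449% as higher and 0.72% as lower, and 1726 of 11801 genes were at an unadjusted p under 0.05. Of the 8 members at an unadjusted p under 0.05, 7 were cathepsins, and the median of the 13 cathepsins was -0.47. DESeq2 called 2 members, ctsa and ctsl.1, where it called 5.59% of all genes. The gene ctsa, for protective protein cathepsin A, had every Z- fish (18.2, 21.4 and 24.5 CPM) below every A- fish (24.9, 29.3 and 65.6 CPM), where 1.13% of all genes did and 0.72% did the reverse, at -0.71 ± 0.21 (adjusted p = 0.11). The highest A- value was that of A- replicate 6, and without the 4 libraries that stood apart the log2 fold change was -0.44 (adjusted p = 0.20). In the same comparison the 18 leukocyte markers had a median of -0.68 and 8 at an unadjusted p under 0.05 (0 past the threshold), and the part of these cells in the ctsa value was not tested. For the 18 pump genes the median was -0.16, with values between -0.28 and 0.41, and 0.01 without those 4 libraries.

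Other genes linked to the lysosome, from lists of symbols mostly outside the rule, were set beside the members. Their counts are to be read against the 11.8% of all genes called in Z+ compared with A+, 12.2% in Z+ compared with Z- and 10.1% in A+ compared with A-. Of 41 genes tested from the list of other lysosomal enzymes, not all of whose products act in the lysosome, 5 were higher and 1 lower in Z+ compared with A+. Log2 fold changes were 0.74 ± 0.16 for pgpep1, a gene for a cytosolic peptidase, 0.90 ± 0.19 for sgsh, 0.80 ± 0.20 for pla2g15 and 0.72 ± 0.18 for fuca2. In the same comparison 7 were higher and 2 lower of 28 other membrane proteins, with mfsd8 at 0.96 ± 0.19, dram2b at 0.73 ± 0.17, spns1 at 0.67 ± 0.16 and slc17a5, for the sialic acid exporter, at 1.19 ± 0.34. Of 24 genes of delivery and sorting, 4 were higher and 1 lower, the 4 being the sortilin gene sort1b at 2.24 ± 0.38, gnptab, whose product starts the mannose 6-phosphate tag, at 0.73 ± 0.14, and vps16 and ap3m1 at 0.82 and 0.61. Medians of these lists were 0.20, 0.37 and 0.27, and the shares called in either direction were 14.6%, 32.1% and 20.8%.

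Relative to siblings, A+ fish had 2 enzymes higher and 5 lower, 0 membrane proteins higher and 4 lower, and 1 sorting gene higher and 3 lower, with gnptab at -0.85 ± 0.14 (adjusted p = 0.0020), which are shares of 17.1%, 14.3% and 16.7%. In Z+ compared with Z-, the counts were 1 higher and 2 lower enzymes, 1 higher and 1 lower membrane protein and 2 higher and 1 lower sorting genes, shares of 7.32%, 7.14% and 12.5%. Against both non-transgenic genotypes together, the shares in Z+ fish were 9.76%, 10.7% and 29.2%, beside 16.8% of all genes. The fucosidase gene fuca1.2 was lower in both lines, at -0.99 ± 0.16 (adjusted p = 5.1e-04) in Z+ compared with Z- and -0.87 ± 0.16 (adjusted p = 0.0047) in A+ compared with A-, as was the acid phosphatase gene acp5b at -1.72 ± 0.44 and -2.50 ± 0.45. The interaction was past the threshold for gnptab (adjusted p = 0.015) and for dram2b, a lysosomal membrane protein gene of autophagy (adjusted p = 0.036).

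Of 23 genes that control TFEB and mTORC1, the kinase complex that holds TFEB in the cytosol, 1 was lower and 0 higher in Z+ compared with A+, rragca at -0.78 ± 0.21 (adjusted p = 0.025). Z+ fish had 2 of them higher than Z- fish, akt1s1 at 0.52 ± 0.15 and tsc2 at 0.63 ± 0.20, and in A+ compared with A- 1 was lower, ywhaba at -0.44 ± 0.13. These are shares of 4.35%, 8.7% and 4.35%, each below that of all genes. In Z+ compared with both non-transgenic genotypes together, 4 were higher and 0 lower. That is a share of 17.4%, beside 16.8% of all genes, 9.16% as higher. Of 5 genes for pump assembly and partners, 0 passed in Z+ compared with A+ or Z+ compared with Z-, and the assembly factor gene vma21 was lower in A+ compared with A- (-0.44 ± 0.13, adjusted p = 0.041).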

How the data were processed

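Per the labels, liver RNA of 24 zebrafish was sequenced from polyA-selected, stranded libraries. The authors aligned the reads with STAR to GRCz11 with the transgene added and counted them with featureCounts, and the deposited values are these raw counts per gene, without normalization. Whether counting used the strand is not given in the sources used here. Groups and columns came from the sample labels, and all 24 fish were kept. Which fish shared a sequencing run is not in the labels.

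The software was R 4.3.3, edgeR 4.0.16 and DESeq2 1.42.0. A gene was tested if 3 or more fish had over 100 counts. After TMM scaling, edgeR fitted a single quasi-likelihood model with a mean for each of the 4 genotypes to all fish, and p-values were adjusted over all 11801 genes by Benjamini-Hochberg with a threshold of 0.05. Standard errors came from the fold change and its F statistic. Read shares of paralogs, which were not among the planned results, were compared by exact permutation tests in scipy 1.17.1. The code was run on simulated counts that had less spread between fish and larger changes than most in these data. That run does not show how many true or false calls to expect here.

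The members and gene lists were chosen with earlier results of these data known. The values of 1 member, included in the counts, are not reported here. Named were the other members past the threshold in any comparison, at least 2 of each role, and up to 4 genes of each other list with the smallest adjusted p in Z+ compared with A+. Other genes of these lists were named after their values were seen. Alternatives were DESeq2, its size factors, library totals, filterByExpr, no filter, a vitellogenin covariate, a block for the replicate number, fits of only the genotypes compared and leaving out each fish. Gene lengths and sequences were not used here, so levels of different genes are not compared, and the planned levels per coding length and promoter motif counts were not run.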

Additional observations from a re-analysis of the deposited data

Results flagged for a closer look

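The 88 groups of 6 fish were 21 members, in log2 CPM, and the summed pump level, in CPM, in each genotype. Of these, 6 groups held a fish far from the other 5, and chance flags about 1 in 20 groups. A- replicate 6 was highest for atp6v0d1 (5.90, nearest fish 5.40), ctsh (5.75, nearest 4.37) and hexb (5.90, nearest 4.22). This fish also had the most intestinal transcripts, 21754 CPM, and the highest sum of leukocyte markers, 406 CPM. Their part in these values was not tested. Z- replicate 2 was lowest for atp6v1c1b (3.75, nearest 4.55) and atp6v1h (4.17, nearest 4.71), and Z+ replicate 5 was lowest for atp6v1ba (4.11, nearest 4.53). These 2 fish had the highest vitellogenin levels, 829950 and 792403 CPM, and the part of vitellogenin in these values was not tested.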

How the results depend on the processing

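No called fold change of a member changed sign. Genes of the other lists were not examined under the alternatives. Of values not called, the pump median in Z+ compared with A+ (0.03) was below 0 with DESeq2's size factors (-0.01) and library totals (-0.13), that in Z- compared with A- (-0.16) was 0.01 without the 4 libraries that stood apart, and ctsl.1 in A+ compared with A- turned positive without them. Shares of all genes called in the same setting are in parentheses. Counts of members called in Z+ compared with A+ (3) were 6 with DESeq2 (16.6%), 10 with the vitellogenin covariate (18.7%), 1 in a fit of only these genotypes (2.86%) and 9 without the 4 libraries (22.2%). Against both non-transgenic genotypes (7), Z+ had 3 with library totals alone (8.97%) and 15 without those 4 libraries (35%). In Z+ compared with Z- (4) the counts were 2 with library totals (4.14%) and 8 without the 4 libraries (27.3%), and in A+ compared with A- (16) they were 7 with library totals (4.61%) and 3 in a fit of only these genotypes (1.13%). In Z- compared with A- (0) DESeq2 called 2 (5.59%). For the interaction (0) DESeq2 called 6 (7.99%), the vitellogenin covariate 1 (3.7%) and the fit without the 4 libraries 1 (3.15%). The comparison of all transgenic with all non-transgenic fish (15) had 5 with library totals (9.6%). Leaving out 1 fish at a time gave 3 to 6, 4 to 9, 3 to 6, 10 to 20, 0 to 0, 0 to 1 and 12 to 18 members in these comparisons, in the order given. The lowest for A+ compared with A-, 10, was without A- replicate 6 (9.29%), and the highest, 20, without A- replicate 1 (9.11%). The 6 in Z+ compared with A+ was without Z+ replicate 5 (13.4%), and 5 were called without A- replicate 6 (12.7%). The 4 against both non-transgenic genotypes was without Z+ replicate 3 (12.1%). Causes were not tested.

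With the replicate number as a block the counts were 2, 8, 4, 13, 0, 0 and 13. That fit called 6.68%, 15.9%, 10.7%, 4.81%, 0.847%, 0.449% and 15.5% of all genes, in the same order. The number is not shown to pair fish, since same-numbered fish of different genotypes correlated between -0.45 and 0.77 in their deviations.

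The median of all genes in Z+ compared with A+ was -0.21 with library totals and -0.02 with TMM. The summed pump levels of transgenic and non-transgenic fish, apart with TMM, overlap without it. Depth limits the 18 members under the filter, which were not tested.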
